A study of Drosophila melanogaster with 20 samples.

Results

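The genes described here are 10 patterning genes of the fruit fly: vestigial (vg), nubbin (nub), apterous (ap), wingless (wg), decapentaplegic (dpp), eyeless (ey), sine oculis (so), eyes absent (eya), dachshund (dac) and Distal-less (Dll). They were taken by symbol as selector and signal genes of the wing, eye and leg discs, and all 10 were found among the 14081 genes of the deposited tables. All 10 also passed the filter on low values in every comparison. RNA was taken from whole Drosophila melanogaster larvae, 4 days old, kept at 25 °C on the wDah background and depleted of ribosomal RNA before sequencing. There were 5 libraries each of I172G (genotype DmSAMC.I172G, called a mild mutant in the labels), P223L (DmSAMC.P223L, called severe), SAMC-null (DnSAMC.M1fs;M39*, called a severe null) and control larvae. The mutant groups are genomically engineered changes in the mitochondrial carrier of S-adenosylmethionine (SAM), which is used in methylation reactions. With 1 genotype per group, an effect of the carrier cannot be separated from anything else in which the fly lines differ. The labels used here do not state how many larvae went into a library, nor whether the 5 libraries had separate origins, so p-values cover the spread between these libraries only.

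Imaginal discs are pockets of epithelium in the larva that grow and are patterned there and form the adult wings, legs, eyes and antennae at metamorphosis. Selector genes encode transcription factors that give a field of disc cells its identity, while wg and dpp encode secreted signals that spread through the disc and set positions within it. In the eye field, ey, so, eya and dac form the retinal determination network, in which ey acts upstream and the Eya and So proteins act as a pair. Discs are a small part of the larva, and several of these genes are also used elsewhere, such as nub and ey in the nervous system and nub in the gut.

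Values are normalised read counts, scaled by the authors so that libraries can be compared, and each gene was tested with limma over all genes, with Benjamini-Hochberg adjusted p below 0.05 taken as passing. The normalised counts of a library summed to 33000000 to 36600000 in I172G, 24800000 to 26100000 in P223L, 22100000 to 22900000 in SAMC-null and 33200000 to 35400000 in control. Rescaling every library to the same sum moved the median log2 fold change of all genes to 0.36, against -0.06 as deposited, in P223L, and to 0.55, against -0.06, in SAMC-null. With it, the share of higher genes among those passing became 65.8% in P223L and 69.7% in SAMC-null, against 46.2% and 46.7% as deposited. In I172G that share became 38.0%, against 45.4%. The direction of a modest difference in the severe lines therefore depends on whether equal sums are used. Each member is given below as deposited and with equal sums. Median-ratio rescaling left the median of all genes at -0.05 in each severe line, and every member there kept its deposited direction. It gave vg -0.68 in P223L and -0.49 in SAMC-null, and wg -0.22 and -0.34. Late fat body and muscle markers, given below, are part of the library sums and were lower in the severe lines. Control replicate 4 correlated least with its own group, at a mean Pearson r of 0.970 across genes. The other control libraries stood at 0.979 to 0.982, and the highest value, 0.990, was in SAMC-null. Without control replicate 4 the numbers of members passing stayed at 3 for I172G, 9 for P223L and, against the same control, 8 for SAMC-null.

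The transcript of the carrier gene CG4743 averaged 171.5 ± 22.7 normalised counts in I172G, 207 ± 24.6 in P223L, 112 ± 12.8 in SAMC-null and 125 ± 20.2 in control (SD, n = 5). The labelled alleles change or truncate the protein, so this level does not check the labels. All 57 marker genes of neurons, glia, neuroblasts, enterocytes, muscle, late fat body, glue glands and cuticle reached 10 in at least 1 library of I172G and of control. In P223L and in SAMC-null, 9 of the 57 stayed under 10 in every library, all of them genes of late larval fat body, glue or cuticle.

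Several of those marker lists moved with the groups, and their values belong beside every result below. Summed counts of the 10 neuronal markers ranged from 25580 to 30190 in P223L, 29700 to 31910 in SAMC-null and 8987 to 10250 in control, with 9 of 10 markers higher and none lower in each severe line. They ranged from 9340 to 10150 in I172G, where 1 of 10, the sodium channel gene para, was higher. The 6 late fat body markers, storage proteins of the last larval stage and their like, summed to 63.9 to 325.6 in P223L and 157 to 327 in SAMC-null, against 3591000 to 4302000 in control. All 8 muscle markers were lower in both severe lines, with sums of 735100 to 807100 in P223L, 365800 to 383500 in SAMC-null and 1593000 to 1962000 in control. Of the 8 enterocyte markers, 2 were higher and 6 lower in P223L, 2 higher and 5 lower in SAMC-null, and 5 lower in I172G. With equal sums these were 2 higher and 4 lower in P223L and 3 higher and 5 lower in SAMC-null. Of 8 glial markers, 6 were higher and 1 lower in P223L, and 7 higher and 1 lower in SAMC-null. Of 6 neuroblast markers, 2 were higher and 2 lower in P223L, and 2 higher and 3 lower in SAMC-null. Of all genes, 78.7% passed in P223L, 81.7% in SAMC-null and 32.2% in I172G. Glue genes of the salivary gland, which larvae make late in larval life, were higher in I172G for 4 of 6 (6 of 6 without control replicate 4). Their summed counts ranged from 24710 to 78210 in I172G and 3309 to 30610 in control. Also higher in I172G were 3 of the 6 late fat body markers, with sums of 4399000 to 4778000 in I172G and 3591000 to 4302000 in control, and 3 of the 5 cuticle markers (4 without control replicate 4). The part of these in the I172G values below was not tested. Cuticle markers summed to 288.9 to 433.6 in P223L and 149.5 to 228.7 in SAMC-null, against 342000 to 626000 in control. Glue genes summed to 18.55 to 41.14 in P223L and 30.04 to 43.48 in SAMC-null. Whole larvae of the severe lines thus differed from control larvae in many tissue transcripts at the same labelled age. The part of this in the values of the patterning genes was not tested. A difference in larval stage at that age was not tested either and cannot be told apart from genotype here. In RNA of whole larvae, fewer cells of a kind and less RNA per cell cannot be told apart.

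Members passed the test at about the rate of all genes. In I172G, 3 of 10 members were higher than control and none was lower, where 32.2% of 12253 genes passed (14.6% higher and 17.6% lower). In P223L, 3 were higher and 6 lower, where 78.7% of 12208 genes passed (36.3% higher and 42.4% lower). In SAMC-null, 3 were higher and 5 lower, where 81.7% of 12252 genes passed (38.2% higher and 43.5% lower). With equal sums the members passing became 2 higher and 1 lower in I172G, 3 higher and 3 lower in P223L, and 6 higher and 3 lower in SAMC-null. Of all genes with equal sums, 1406 of 12246 were higher and 2296 lower in I172G. In P223L 6689 of 12196 were higher and 3475 lower, and in SAMC-null 7452 of 12245 were higher and 3241 lower. The balance of directions in the severe lines thus depends on the scaling, for members and for all genes. The median log2 fold change of the members was 0.07 in I172G (-0.03 for all genes tested), -0.27 in P223L (-0.06 for all genes) and -0.23 in SAMC-null (-0.06 for all genes). These counts say nothing particular about the 10 genes as a set, and what follows is about the individual genes, whose directions differed. Members with all 5 mutant libraries on 1 side of all control libraries numbered 3 in I172G, where 18.1% of all genes were apart in this way, 8 in P223L, where 68.2% were, and 6 in SAMC-null, where 71.9% were. In each severe line, 3 members, nub, eya and Dll, passed with at least 2-fold changes, where 36.8% of genes did so in P223L and 40.5% in SAMC-null. No member did so in I172G, where 7.45% of genes did.

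**Figure D1:**
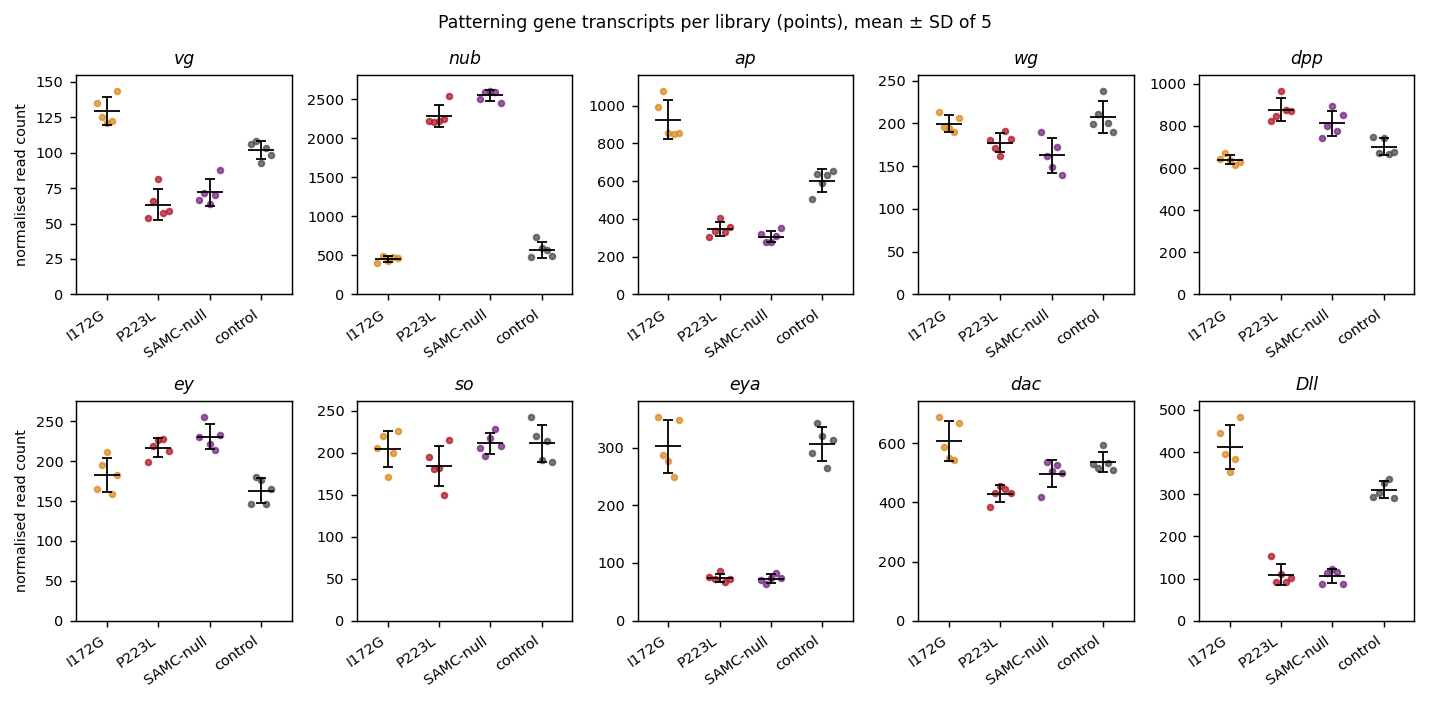
Normalised read count (linear axis from 0) of each of the 10 patterning genes in every library, with points for libraries and bars for mean ± SD of 5 in I172G, P223L, SAMC-null and control. In both severe lines nub lies above every control library and eya, Dll, ap and vg lie below, while vg, ap and Dll in I172G lie above every control library. With libraries rescaled to equal sums, vg in SAMC-null no longer lies lower on average.

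Of the wing genes, nub (FBgn0085424, chromosome arm 2L, 12587625 to 12628135, plus strand) encodes a POU-domain transcription factor that marks the wing pouch and is also made in neural and gut cells. It was measured at 406, 498, 422, 475 and 467 normalised counts in the I172G libraries and at 2224, 2213, 2223, 2247 and 2542 in the P223L libraries. The SAMC-null libraries held 2504, 2597, 2609, 2600 and 2452, and the control libraries 478, 731, 588, 573 and 488. All severe-line libraries lay far above control, and I172G overlapped control. The log2 fold change was 2.02 ± 0.10 (SE) in P223L (limma adjusted p = 2.65e-09) and 2.17 ± 0.10 in SAMC-null (adjusted p = 7.97e-10), which is 4.04-fold and 4.51-fold higher. With equal sums the values were 2.43 and 2.78. In I172G the log2 fold change was -0.32 ± 0.11 and missed the threshold (adjusted p = 0.0522), but it passed with equal sums (adjusted p = 0.0447) and without control replicate 1 or 5 (adjusted p = 0.0380 and 0.0446). It also passed with all 4 groups in 1 fit (adjusted p = 0.00651) and with the higher filter on low values, at 50 (adjusted p = 0.0490). An intron of nub holds the small gene Ref2 on the opposite strand, with no shared exon bases and a mean of 23.7 normalised counts over the 20 libraries.

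The wing selector vg (FBgn0003975, 2R, 12884201 to 12899385, plus strand) encodes a nuclear cofactor that binds the Scalloped protein and defines the wing field. It was the member with the lowest level per exon length in all 4 groups, at 33.3, 16.3, 18.5 and 26.1 normalised counts per kb of exon in I172G, P223L, SAMC-null and control. Its normalised counts were 135, 125, 121, 122 and 144 in I172G, 53.9, 65.6, 81.3, 57.2 and 59.1 in P223L, 66.8, 71.8, 63.8, 70.0 and 88.1 in SAMC-null, and 106, 108, 93.1, 103 and 98.1 in control. Every I172G library was above, and every severe-line library below, all control libraries. For vg this gave a log2 fold change of 0.34 ± 0.10 in I172G (adjusted p = 0.0231), -0.69 ± 0.13 in P223L (adjusted p = 0.000415) and -0.50 ± 0.12 in SAMC-null (adjusted p = 0.00157). The rise in I172G is a marginal call: it was lost with equal sums (adjusted p = 0.0535) and without control replicate 3 or 5 or I172G replicate 5 (adjusted p = 0.0548, 0.0522 and 0.0519). In the severe lines equal sums gave -0.28 in P223L (adjusted p = 0.0704) and turned the direction to 0.10 in SAMC-null (adjusted p = 0.440). Relative to the median gene, vg stood at -0.64 in P223L and -0.45 in SAMC-null with equal sums.

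The dorsal selector ap (FBgn0000099 in the deposited tables, 2R, 5706202 to 5727525, minus strand) encodes a LIM-homeodomain factor that gives the dorsal wing compartment its identity and is also used in muscles and neurons. Its normalised counts were 991, 1079, 855, 851 and 854 in I172G, 304, 336, 404, 333 and 356 in P223L, 320, 280, 276, 308 and 350 in SAMC-null, and 505, 636, 589, 633 and 653 in control. As for vg, I172G was above and both severe lines were below control, with no overlap with it. For ap the log2 fold change was 0.62 ± 0.09 in I172G (adjusted p = 0.00106), -0.80 ± 0.09 in P223L (adjusted p = 4.58e-06) and -0.97 ± 0.09 in SAMC-null (adjusted p = 5.35e-07). With equal sums these were 0.59, -0.39 and -0.37, each still passing (adjusted p = 0.00241, 0.00371 and 0.00359). The wing genes therefore did not move as 1 group: nub was higher, and ap was lower under both scalings, in the same severe-line libraries.

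Ratios of members within a library do not depend on how libraries were scaled. They were picked after the values were seen and are given as a description, without a test. The ratio of nub to vg averaged 3.52 ± 0.42 in I172G, 36.9 ± 6.38 in P223L, 35.9 ± 4.85 in SAMC-null and 5.62 ± 0.93 in control (SD, n = 5). For nub to ap the ratio averaged 0.494 ± 0.062 in I172G, 6.67 ± 0.71 in P223L, 8.402 ± 1.03 in SAMC-null and 0.949 ± 0.146 in control. All severe-line libraries were above, and all I172G libraries below, every control library in both ratios.

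**Figure D2:**
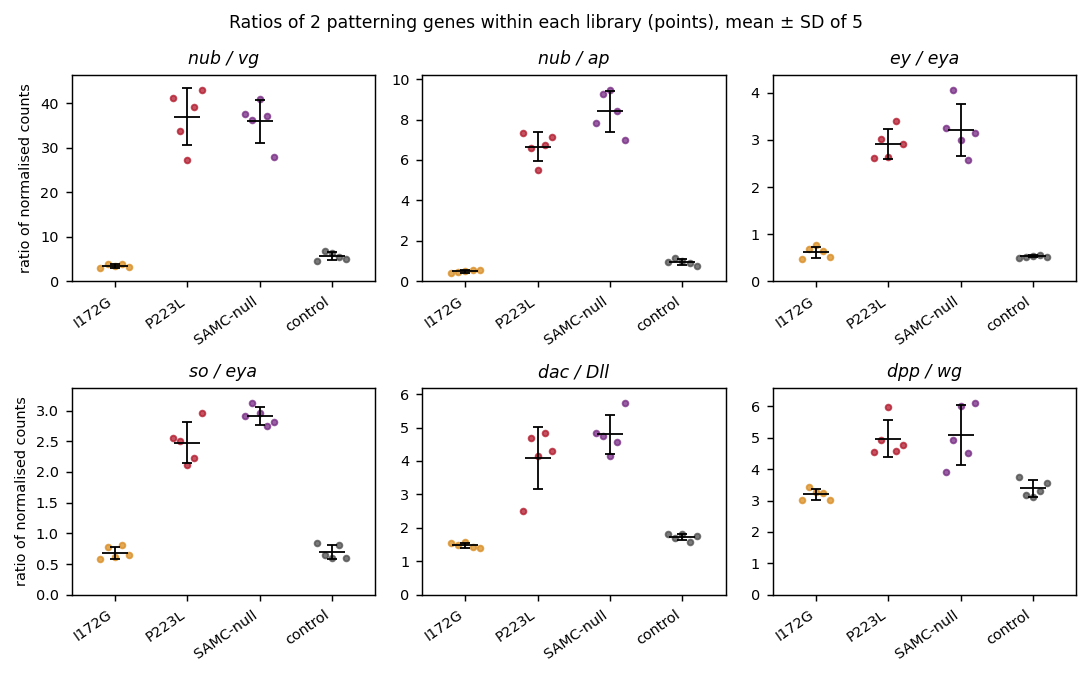
Ratios of normalised counts of 2 patterning genes within each library (linear axes from 0), with points for libraries and bars for mean ± SD of 5 in each group. All 6 ratios are above every control library in all P223L and SAMC-null libraries, and nub/vg, nub/ap and dac/Dll are below every control library in I172G.

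Of the signals, wg (FBgn0004009 in the deposited tables, 2L, 7307159 to 7316265, plus strand) encodes the Wnt ligand made at the wing margin and in other stripes of disc cells. Its libraries ranged from 190 to 213 normalised counts in I172G, 161 to 191 in P223L, 140 to 191 in SAMC-null and 190 to 238 in control, with medians of 196, 181, 161 and 201. Each group overlapped its neighbour in level. The log2 fold change was -0.05 ± 0.09 in I172G (adjusted p = 0.669), -0.22 ± 0.09 in P223L (adjusted p = 0.0350) and -0.36 ± 0.10 in SAMC-null (adjusted p = 0.00662), but with equal sums the severe lines turned to 0.19 (adjusted p = 0.0820) and 0.24 (adjusted p = 0.0429). The P223L call was also lost without control replicate 2 or 3 or P223L replicate 2 or 3. No direction of wg in the severe lines thus holds under both scalings. Relative to the median gene, wg stood at -0.17 in P223L and -0.30 in SAMC-null with equal sums. As deposited these were -0.17 and -0.29.

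The ligand gene dpp (FBgn0000490, 2L, 2428372 to 2459823, plus strand) encodes the fly's main bone morphogenetic protein, made along compartment borders of the discs and also in the gut. Its normalised counts were 644, 674, 637, 616 and 628 in I172G, 822, 848, 967, 877 and 871 in P223L, 743, 798, 893, 778 and 853 in SAMC-null, and 749, 672, 742, 665 and 677 in control. All P223L libraries were above all control libraries, while 1 SAMC-null library fell inside the control range. The gene was higher in both severe lines, with a log2 fold change of 0.32 ± 0.06 in P223L (adjusted p = 0.000328) and 0.21 ± 0.06 in SAMC-null (adjusted p = 0.00764). With equal sums these were 0.73 and 0.82, which is 0.38 and 0.27 relative to the median gene. In I172G the log2 fold change of dpp was -0.13 ± 0.06 (adjusted p = 0.106). The ratio of dpp to wg was 3.204 ± 0.18 in I172G, 4.97 ± 0.59 in P223L, 5.09 ± 0.96 in SAMC-null and 3.39 ± 0.27 in control.

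In the retinal network the upstream gene ey (FBgn0005558, chromosome 4, 697689 to 721173, plus strand), the fly Pax6 factor and also a gene of mushroom body neurons, was higher in the severe lines. Its normalised counts were 165, 195, 212, 159 and 183 in I172G, 199, 219, 226, 228 and 212 in P223L, 231, 255, 221, 214 and 233 in SAMC-null, and 147, 180, 176, 147 and 165 in control. Both severe lines lay wholly above control, and I172G overlapped both control and P223L. Thus ey had a log2 fold change of 0.42 ± 0.09 in P223L (adjusted p = 0.00105) and 0.50 ± 0.09 in SAMC-null (adjusted p = 2.00e-04). With equal sums these were 0.83 and 1.10, which is 0.47 and 0.56 relative to the median gene. In I172G the log2 fold change of ey was 0.16 ± 0.11 (adjusted p = 0.265).

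The coactivator gene eya (FBgn0000320, 2L, 6527447 to 6546976, minus strand), whose product is a phosphatase that joins So on its target genes, went the other way. It was measured at 353, 286, 276, 249 and 347 normalised counts in I172G and at 76.1, 72.1, 85.6, 67.2 and 72.6 in P223L. The SAMC-null libraries held 70.7, 62.8, 73.6, 83.3 and 74.1, and the control libraries 291, 342, 321, 265 and 313. The severe lines overlapped each other and lay far below both other groups, which overlapped. For eya the log2 fold change was -2.02 ± 0.10 in P223L (adjusted p = 2.57e-09) and -2.06 ± 0.10 in SAMC-null (adjusted p = 1.94e-09), that is 4.05-fold and 4.16-fold lower. With equal sums these were -1.61 and -1.46. In I172G the log2 fold change was -0.03 ± 0.11, with a 95% interval of -0.27 to 0.22 (adjusted p = 0.880).

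The partner of eya, so (FBgn0003460, 2R, 7419350 to 7434872, plus strand), encodes a Six-family homeodomain factor and passed in no comparison as deposited. Its libraries ranged from 171.7 to 226 normalised counts in I172G, 149 to 216 in P223L, 196 to 228 in SAMC-null and 189 to 243 in control. The 4 groups overlapped throughout. The log2 fold change was -0.05 ± 0.10 in I172G (95% interval -0.27 to 0.18), -0.20 ± 0.11 in P223L (-0.44 to 0.04) and 0.00 ± 0.09 in SAMC-null (-0.19 to 0.19), with limma adjusted p of 0.766, 0.117 and 0.980. With equal sums SAMC-null passed at 0.60 (adjusted p = 1.96e-05), close to the shift of the median gene of 0.55. The gene so holds CG11145 and lncRNA genes within its span on the opposite strand, with no shared exon bases, and CG11145 had a mean of 17.8 normalised counts.

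The 2 genes whose products act as a pair therefore differed in the severe lines. The ratio of so to eya averaged 0.686 ± 0.096 in I172G, 2.48 ± 0.33 in P223L, 2.91 ± 0.15 in SAMC-null and 0.698 ± 0.115 in control (SD, n = 5). The ratio of ey to eya averaged 0.617 ± 0.120 in I172G, 2.92 ± 0.32 in P223L, 3.21 ± 0.55 in SAMC-null and 0.532 ± 0.020 in control. Every severe-line library was above every control library in both, and I172G overlapped control.

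The gene dac (FBgn0005677, 2L, 16466512 to 16485998, minus strand) encodes a nuclear factor of the retinal network that also specifies the middle leg segments and is used in mushroom body neurons. Its normalised counts were 689, 589, 552, 543 and 669 in I172G, 384, 432, 456, 445 and 432 in P223L, 419, 537, 507, 525 and 500 in SAMC-null, and 532, 515, 593, 535 and 509 in control. Only P223L lay wholly below control. There dac had a log2 fold change of -0.32 ± 0.07 (adjusted p = 0.000810), but 0.09 with equal sums (adjusted p = 0.246). Relative to the median gene, dac stood at -0.27 in P223L with equal sums. In SAMC-null the log2 fold change was -0.11 ± 0.07 (95% interval -0.28 to 0.05, adjusted p = 0.185), but 0.49 with equal sums (adjusted p = 3.21e-05), below the shift of the median gene. In I172G it was 0.18 ± 0.08 (adjusted p = 0.124).

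The limb selector Dll (FBgn0000157, 2R, 24814822 to 24835667, plus strand) encodes the homeodomain factor of the distal leg and antenna. Its normalised counts were 444, 395, 353, 384 and 483 in I172G, 153, 92.1, 110, 92.1 and 101 in P223L, 86.9, 113, 122, 115.1 and 87.3 in SAMC-null, and 293, 304, 326, 336 and 292 in control. The I172G libraries were all above control, the severe libraries all below it, and the severe lines overlapped. For Dll the log2 fold change was 0.40 ± 0.09 in I172G (adjusted p = 0.00947), -1.52 ± 0.13 in P223L (adjusted p = 3.88e-07) and -1.57 ± 0.11 in SAMC-null (adjusted p = 5.76e-08). The falls in the severe lines were 2.86-fold and 2.96-fold. With equal sums the values were 0.37, -1.11 and -0.97, each passing. The ratio of dac to Dll, the middle over the distal leg gene, averaged 1.48 ± 0.08 in I172G, 4.09 ± 0.93 in P223L, 4.80 ± 0.58 in SAMC-null and 1.73 ± 0.10 in control.

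**Figure D3:**
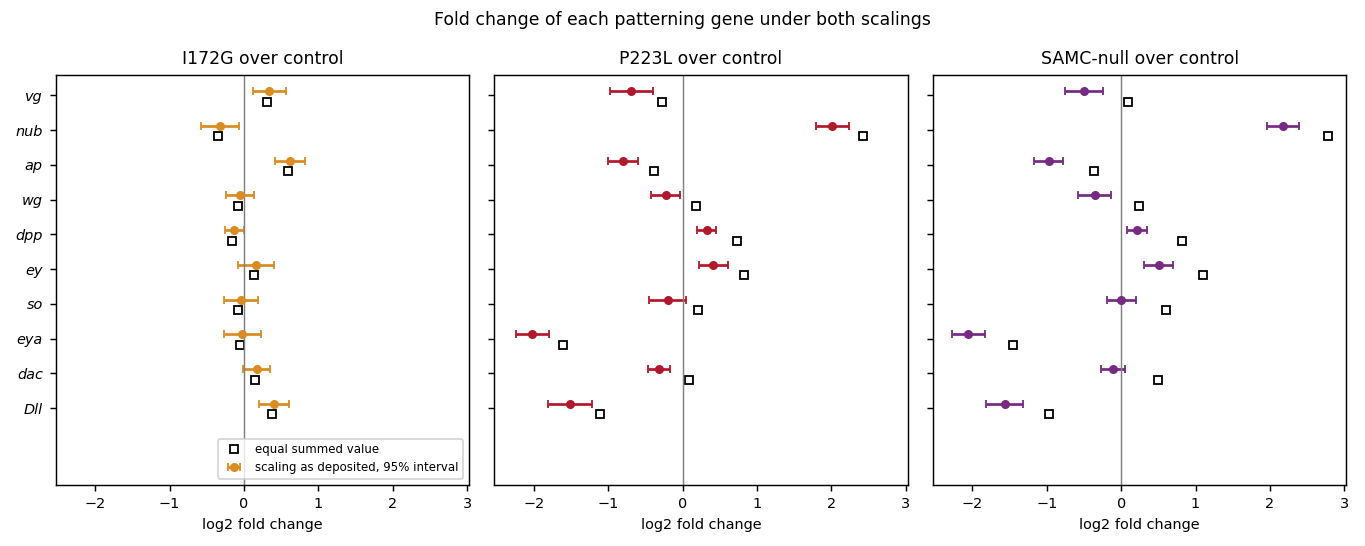
Log2 fold change over control of each patterning gene in I172G, P223L and SAMC-null, with circles and 95% limma intervals for the scaling as deposited and open squares for libraries rescaled to equal sums (n = 5 libraries per group). In both severe lines nub, dpp and ey are above 0 and ap, eya and Dll below 0 under both scalings, while wg and dac in both lines, so in P223L and vg in SAMC-null change side.

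The authors' own test asked for more than a 2-fold change, and in the authors' deposited table nub, eya and Dll passed it in both severe lines, while no member did in I172G. The authors' deposited table gives nub a log2 fold change of 2.00 in P223L and 2.16 in SAMC-null, and eya -2.04 and -2.07. For Dll the authors' deposited table gives -1.52 in P223L (adjusted p = 0.000716) and -1.56 in SAMC-null (adjusted p = 9.49e-05). Of all genes in the authors' deposited table, 0.992% passed in I172G, while 27% did in P223L and 29.7% in SAMC-null. With limma's treat beyond 2-fold the same 3 genes passed in each severe line and none in I172G. By that test 0.498% of all genes passed in I172G, while 28.4% did in P223L and 31.8% in SAMC-null.

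Levels of different members were compared per kb of exon only. In control, ap and dpp were the highest, at 139.6 ± 13.8 and 134.4 ± 7.8 normalised counts per kb, and nub, dac, Dll and eya followed at 108.3, 107.7, 93.7 and 82.98. In P223L nub stood first at 433.8 ± 26.9 per kb, ahead of dpp at 168.2, while Dll and eya held 33.1 and 20.3. SAMC-null had nub first as well, at 483.6 ± 13.3 per kb.

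P223L and SAMC-null, a single amino acid change and a null allele both labelled severe, were also compared with each other. Of the 10 members, 2 were lower in P223L than in SAMC-null and none was higher, where 47.4% of 11168 genes passed, by direction 22.4% higher and 25.1% lower. No member had its 2 groups of libraries fully apart, where 33.9% of genes did, and none passed with a 2-fold change, where 4.41% did (1.72% by limma's treat). The 2 lower members were nub, with a log2 fold change of -0.16 ± 0.04 (adjusted p = 0.00576), and dac, with -0.21 ± 0.07 (adjusted p = 0.0240). The call for nub was lost when all 4 groups shared 1 fit (adjusted p = 0.173), and that for dac without P223L replicate 1 or SAMC-null replicate 2, 3 or 4 (highest adjusted p = 0.0663). With each library left out in turn, nub ranged from -0.20 to -0.15 and always passed (limma adjusted p = 0.000339 to 0.0175). In the same fits dac ranged from -0.27 to -0.17 (lowest limma adjusted p = 0.00195). For eya the log2 fold change was 0.04 with a 95% interval of -0.21 to 0.28, and for Dll 0.05 with -0.27 to 0.36, but both were below 0 with equal sums. For ap it was 0.17 (-0.01 to 0.35, adjusted p = 0.103), but -0.02 with equal sums, and it passed without P223L replicate 1 or SAMC-null replicate 5 (adjusted p = 0.0447 and 0.0444). Likewise so passed without P223L replicate 5 (adjusted p = 0.0270), at a log2 fold change of -0.26. With equal sums so (-0.39, adjusted p = 0.00150), ey (-0.28, adjusted p = 0.00409) and vg (-0.38, adjusted p = 0.0248) were lower in P223L as well as nub and dac, while the median of all genes was at -0.21. A missed threshold does not show that the 2 lines act alike.

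The 3 members higher in I172G, vg, ap and Dll, were all lower in the 2 severe lines, except that vg in SAMC-null was not lower with equal sums. I172G shares its control libraries with those comparisons, so the values stand side by side here and their pattern is not a separate result. The likeness of 2 members was measured as the root mean square difference of their log2 values over the 20 libraries, each centred on its mean. By this measure the closest pair was dpp and ey, at 0.178, while eya and Dll were at 0.286 and vg and ap at 0.303. The pair farthest apart was nub and eya, at 2.15.

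Among 10300 genes with a mean of at least 50, the 2 nearest to each member by the same measure over 20 libraries lay at 0.070 to 0.215. For nub these were the scavenger receptor gene pes (0.122) and CG1882 (0.132). For eya they were the blood cell gene Hml (0.170), which averaged 20110 normalised counts in I172G, 5362 in P223L, 4767 in SAMC-null and 20680 in control, and msb1l (0.171). For Dll they were the neural stem cell factor gene dpn (0.203) and axo (0.215), and for ap HDAC1 (0.140) and Ugt (0.143). For vg they were Caf1-55 (0.146) and Map60 (0.148), for wg hay (0.112) and CG5447 (0.114), and for dpp CG1578 (0.070) and Gyf (0.083). For ey they were nonC (0.102) and CG3061 (0.104), for so CG5273 (0.122) and CG2006 (0.124), and for dac CG30440 (0.096) and CG9426 (0.098).

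Partners and targets of the members were described by list. Counts as deposited stand against the shares of all genes given above. Counts with equal sums stand against the numbers of all genes given above for that scaling, where most passing genes in the severe lines were higher. Of 12 further wing field factors, 9 were higher and 3 lower in P223L and also in SAMC-null, with medians of 0.43 and 0.60, and none passed in I172G. With equal sums 9 were higher and 2 lower in each severe line. The 3 that fell as deposited were rn, a zinc-finger gene of the wing pouch (-2.67 ± 0.13 in P223L and -2.36 in SAMC-null), its cofactor gene nab (-1.74 and -2.28) and the Dpp target bi (-0.60 and -0.50), which no longer passed in either line with equal sums. The intervein factor gene kn was higher, at 1.65 and 2.03. Of 7 partners and targets of Ap, 2 were higher and 3 lower in P223L and 4 higher and 3 lower in SAMC-null, and with equal sums 4 higher and 2 lower in each. Among them Bx, whose product inhibits Ap, was higher (0.81 and 1.13), while the Ap targets fng, a glycosyltransferase gene, and Ser, a Notch ligand gene, were lower (-1.50 and -1.21, and -0.79 and -0.93). Others of the list differed in direction as deposited: caps was higher (0.36 and 0.37) and Dr lower (-0.46 and -0.44). The gene trn was higher in SAMC-null only (-0.03 and 0.23).

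Of 18 Wingless pathway genes, 4 were higher and 8 lower in P223L and 7 higher and 7 lower in SAMC-null. With equal sums these became 12 higher and 1 lower in P223L and 14 higher and 1 lower of 19 in SAMC-null. The feedback inhibitor gene Notum set the 2 severe lines apart: it averaged 565 normalised counts in P223L, 71.8 in SAMC-null, 89.8 in I172G and 97.1 in control, with a log2 fold change of 2.97 in P223L over SAMC-null (adjusted p = 3.35e-12). The feedback gene nkd was likewise higher in P223L (1.53 over control) than in SAMC-null (0.71 over control), by 0.81 between the lines (adjusted p = 5.72e-09). The scaffold gene Apc2 was lower in all 3 lines, at -1.003 in I172G (adjusted p = 0.000742) and -1.84 and -1.83 in the severe lines. Of 16 Dpp pathway genes, 9 were higher and 5 lower in P223L, 10 higher and 3 lower in SAMC-null, and 4 higher and 1 lower in I172G (6 and 2 without control replicate 4). Equal sums gave 12 higher and 1 lower in P223L, 13 higher and 1 lower in SAMC-null, and no other count in I172G. They included cv-2, for a BMP-binding protein (0.49 in I172G, 1.56 and 1.82 in the severe lines), and the receptor gene tkv (0.35, 0.67 and 0.90). The gene dally of the same list was lower as deposited, at -0.69 in P223L and -0.64 in SAMC-null.

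Of 12 Hedgehog and compartment genes, 3 were higher and 9 lower in P223L and 3 higher and 8 lower in SAMC-null, but 5 higher and 3 lower, and 9 higher and 1 lower, with equal sums. Of 13 Notch pathway genes, 2 were higher and 7 lower in P223L and 1 higher and 7 lower in SAMC-null, and the receptor gene N was at -1.93 and -2.10. With equal sums the Notch list had 5 higher and 6 lower in P223L and 6 of each in SAMC-null. Of 16 retinal partners, 8 were higher and 4 lower in P223L and 8 higher and 3 lower in SAMC-null, and 12 higher and 2 lower in each with equal sums. The proneural gene ato, which founds photoreceptor clusters, averaged 45.1 normalised counts in I172G, 0.153 in SAMC-null and 37.8 in control, and was listed at 0 in all 5 P223L libraries. The photoreceptor factor gene gl was at -2.05 and -2.16 in the severe lines, while tsh of the same list was higher, at 0.65 and 0.69. Of 10 photoreceptor genes tested in P223L, 1 was higher and 5 lower, and of 11 in SAMC-null 3 were higher and 6 lower, with sens at -2.43 and -2.91. With equal sums 3 photoreceptor genes were higher and 4 lower in P223L, and 5 were higher and 3 lower in SAMC-null.

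Of 17 leg factors, 7 were higher and 3 lower in P223L and 8 higher and 2 lower in SAMC-null, with Lim1 at 1.91 and 1.24 and Sp1 at -1.30 and -1.19. Equal sums gave 13 higher and 2 lower leg factors in P223L and 15 higher and 2 lower in SAMC-null. Of 15 Hippo pathway and growth genes, 7 were higher and 5 lower in P223L and 9 higher and 5 lower in SAMC-null, with the unconventional myosin gene d at -3.23 and -3.28 and Myc at 1.70 and 1.70. Equal sums gave 10 higher and 2 lower growth genes in P223L and 12 higher and 3 lower in SAMC-null. Of 20 cell cycle genes, none was higher and 19 were lower in each severe line, with medians of -1.97 and -2.16. With equal sums 2 were higher and 16 lower in P223L and 3 higher and 15 lower in SAMC-null. The mitotic activator gene stg averaged 942 normalised counts in I172G, 56.8 in P223L, 57.4 in SAMC-null and 881 in control. In I172G, 11 of the 20 were higher and none was lower as deposited, among them CycA at 0.42 ± 0.06 (limma adjusted p = 0.000623). With equal sums 8 of the 20 were higher and 1 lower in I172G.

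**Figure D4:**
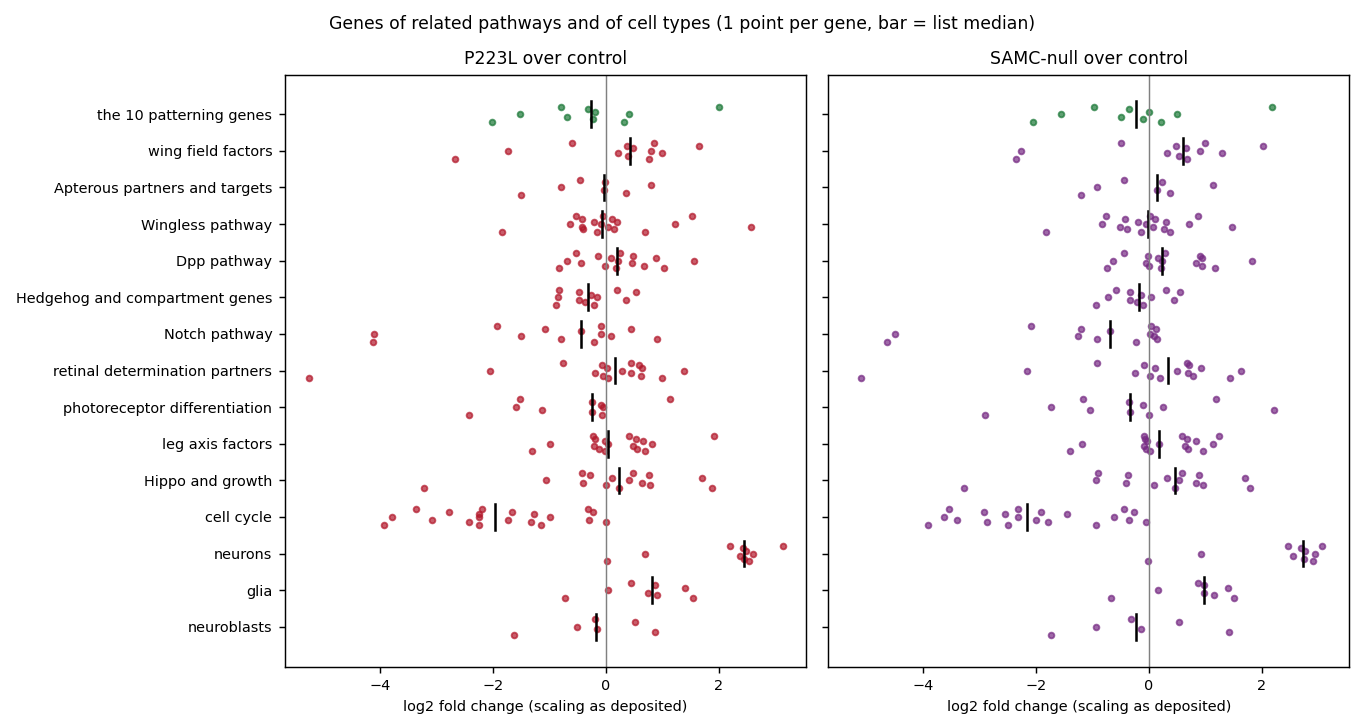
Log2 fold change over control in P223L and SAMC-null (scaling as deposited) for the 10 patterning genes, 11 lists of related genes and 3 nervous system marker lists, with 1 point per gene and a bar at each list's median. The 10 patterning genes spread from about -2 to 2 on both sides of 0, cell cycle genes lie at or below 0 (2 and 3 of them higher with equal sums), and neuronal markers lie mostly above 2.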

How the data were processed

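The 20 libraries are RNA sequencing of whole larvae, with groups and replicate numbers taken from the labels. DESeq2 1.26.0, Salmon 0.11.3 and the BDGP6 build were used by the authors, per the submitters' processing notes. The deposited tables hold, per library, a signal value that is a normalised read count per gene, on 1 scale for all 20 libraries. They also hold, per the file headers, the authors' log2 fold change, its standard error, a Wald score, a weight, a p-value and an adjusted p-value. Of the low values, 55.3 to 81.0% per library lay within 0.1 of a whole multiple of 1 read, so counts were not recovered and no count test was used. Dividing by the value of 1 read, taken as the most frequent low value, gave an estimate of about 23500000 to 35200000 reads per library. The labels state a lower depth, which was not used.

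For each comparison, log2(value + 1) of its 10 libraries went into limma 3.58.1 (R 4.3.3) with an intensity trend. Genes with at least 10 in at least 5 libraries were tested, two-sided, with Benjamini-Hochberg adjustment over all of them and a threshold of 0.05. A fold change on this scale understates changes of low genes. The fit was tested on 1 simulated data set per comparison, where the share of false calls was under the threshold in each comparison with control and above it in P223L against SAMC-null. Each simulated set had only 200 changed genes and independent noise, while far more genes passed in the data. Those shares of false calls therefore do not carry over to the data. Coordinates and exon lengths are those of Ensembl 115 (BDGP 6.54), in which 8 members were matched by identifier and 2, ap and wg, by symbol. No sequence is printed, as no sequence table was used here.

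Members and lists were chosen with earlier results of these data known. Genes named beside the members were up to 3 per list with the smallest adjusted p in P223L and in I172G, and the 2 nearest to each member. The genes caps and Dr were named besides, after the values were seen. Alternatives were equal sums, median-ratio rescaling, pseudocounts of 0.5 or 4, a filter of 50 or none, a replicate block, 1 fit of all 4 groups, limma's treat beyond 2-fold, each library left out and the authors' test. For the lists, rescaling and leaving out control replicate 4 were added after seeing the data. Figures were drawn with matplotlib 3.10.9, and tables made with numpy 2.4.6 and pandas 2.3.3 in Python 3.11.15.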

Additional observations from a re-analysis of the deposited data

Results flagged for a closer look

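In the P223L group, nub in replicate 5 stood apart at 2542 normalised counts, where the other P223L libraries held 2213 to 2247. In the SAMC-null group, dac in replicate 1 stood apart at 419.4 normalised counts, where the other SAMC-null libraries held 500.3 to 536.7. Each gap, set against the range of its group, exceeded Dixon's 95% critical value for 5 samples. There were 40 combinations of gene and group, and chance alone marks about 1 in 20 of them. Without SAMC-null replicate 1, dac still did not pass against control (log2 fold change -0.05, limma adjusted p = 0.458).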

How the results depend on the processing

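Over all members, comparisons and alternatives, 703 of 790 results kept their direction and their side of the threshold, 46 no longer passed, 14 newly passed and 27 changed sign. Under the other filters, the replicate block, the shared fit and limma's treat, the log2 fold change is the same by construction. In those settings only the side of the threshold could change, so the tally is no measure of stable direction. With equal sums the direction turned in P223L for wg (0.19), so (0.21) and dac (0.0914), and in SAMC-null for vg (0.10), wg (0.24) and dac (0.49). It also turned in P223L against SAMC-null for ap (-0.0178), wg (-0.059), dpp (-0.0813), eya (-0.15) and Dll (-0.14). In I172G, eya turned to 0.00342 with median-ratio rescaling, and the authors' deposited table gives so -0.000501 in SAMC-null. Leaving out 1 library each gave so -0.0844 to 0.0162 and eya -0.0847 to 0.0409 in I172G, so -0.0363 to 0.0533 in SAMC-null, and eya -0.0151 to 0.0855 and Dll -0.0763 to 0.107 in P223L against SAMC-null. The number of members passing became 0 in I172G, 3 in P223L, 3 in SAMC-null and 0 in P223L against SAMC-null with limma's treat beyond 2-fold, and 0, 3 and 3 against control in the authors' deposited table. Both of these ask for a larger change by construction. For P223L against SAMC-null it was 5 with equal sums and 1 with all 4 groups in 1 fit. Leaving out each library gave 2 to 4 in I172G, 8 to 9 in P223L, 8 to 8 in SAMC-null and 1 to 3 in P223L against SAMC-null, with 1 without SAMC-null replicate 2, 3 or 4. Where no reason is given, the cause was not tested. Same-numbered libraries of 2 groups correlated at -0.24 to 0.11 in their deviations, and at most 1 of 5 libraries correlated best with its own number. Such correlations cannot show whether same-numbered libraries shared a preparation, which the labels used here do not state. With the replicate block 3 members passed in I172G, 8 in P223L, 8 in SAMC-null and 3 in P223L against SAMC-null. Under the block vg in I172G (adjusted p = 0.0716) and wg in P223L (adjusted p = 0.0925) no longer passed, while nub in I172G (adjusted p = 0.0454) and dpp in P223L against SAMC-null (adjusted p = 0.0451) did.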
